A study of Mus musculus with 2 samples.

Results

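The insulin-like growth factor (IGF) system was followed through the cell classes of 2 mouse kidneys by the UMIs of 7 genes: the ligand gene Igf1, the receptor gene Igf1r and the binding protein genes Igfbp2, Igfbp3, Igfbp4, Igfbp5 and Igfbp7. The genes were chosen by name from the 31053 genes listed for both libraries. Each was measured by droplet single-cell RNA sequencing from the 3' end (10x Chromium, v3) in every cell class that markers defined. A UMI, or unique molecular identifier, stands for 1 captured RNA molecule. 1 library was of wild type kidney and 1 of kidney with the genotype label KO and the title Kif3aΔTub, a name for deletion of Kif3a in the tubule. Kif3a encodes a motor subunit that cells need to build the primary cilium. The mice of both groups were 5 weeks old. Per the labels' protocols, 1 kidney per mouse was dissociated in the cold with a bacterial protease, red cells were lysed and dead cells were removed. The number of mice behind each library, the deleted part of Kif3a and the driver of the recombinase are not given in the sources used here. With 1 library per genotype no difference has a replicate check, and genotype and library cannot be told apart. Every interval below is a 95% interval that covers counting error only.

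IGF1 is a growth hormone-dependent peptide that acts through the IGF1 receptor, a tyrosine kinase whose signal runs through insulin receptor substrates, PI3 kinase and AKT. Outside the cell most IGF1 is held by binding proteins, which lengthen its life, withhold it from the receptor, or release it when proteases cut them. IGFBP7 binds IGF only weakly and is also known as a matrix protein of vessels and injured tissue. In the kidney, IGF1 is known for its effects on renal growth and filtration.

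Igf1 lies at chr10:87858265-87937042 and Igf1r at chr7:67952827-68233668, both on the plus strand of GRCm38, the assembly that mm10 names. Igfbp2 (chr1:72824503-72852474, plus strand) and Igfbp5 (chr1:72857932-72874884, minus strand) are neighbours that end toward each other, with 5.46 kb and no annotated gene between them. Igfbp3 (chr11:7206086-7213923, minus strand) has Igfbp1 as such a neighbour at 3.54 kb. Igfbp4 lies at chr11:99041244-99054392 on the plus strand and Igfbp7 at chr5:77349240-77408041 on the minus strand. Igf1 and Igfbp7 overlap annotated genes of the opposite strand (Igf1os for Igf1, and Polr2b and Gm34648 for Igfbp7), while the other 5 members overlap none.

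All 7 members had a promoter entry in the RefSeq table for GRCm38.p6. The bases upstream of the RefSeq start are shown for Igfbp2, which had no UMI in the wild type library outside 5 urothelium cells, for Igfbp3, the member with the highest share of its UMIs in 1 endothelial class in both libraries, and for Igfbp5, the neighbour of Igfbp2. Capitals mark matches, on either strand, to a TATA box (TATAAA), a GC box (GGGCGG), an AP-1 site (TGANTCA) or a hypoxia response core (ACGTG). The Igfbp2 window is chr1:72824230-72824479, plus strand, the Igfbp3 window chr11:7213924-7214173, minus strand, and the Igfbp5 window chr1:72874885-72875115, minus strand.
Igfbp2: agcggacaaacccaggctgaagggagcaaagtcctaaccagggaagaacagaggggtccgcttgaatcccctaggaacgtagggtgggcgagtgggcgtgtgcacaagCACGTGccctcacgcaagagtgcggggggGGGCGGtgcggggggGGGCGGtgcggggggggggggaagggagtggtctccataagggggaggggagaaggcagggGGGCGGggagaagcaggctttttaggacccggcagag
Igfbp3: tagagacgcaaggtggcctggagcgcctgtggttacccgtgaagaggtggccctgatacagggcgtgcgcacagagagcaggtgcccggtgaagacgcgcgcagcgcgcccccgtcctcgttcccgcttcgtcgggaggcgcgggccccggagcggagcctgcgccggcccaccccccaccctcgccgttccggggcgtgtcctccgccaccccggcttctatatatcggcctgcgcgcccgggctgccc
Igfbp5: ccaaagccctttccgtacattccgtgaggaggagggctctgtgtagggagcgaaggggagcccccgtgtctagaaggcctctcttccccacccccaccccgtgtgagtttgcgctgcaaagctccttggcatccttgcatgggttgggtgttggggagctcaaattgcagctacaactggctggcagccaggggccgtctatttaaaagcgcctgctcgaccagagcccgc
The Igfbp2 window held 3 GC boxes and 2 overlapping matches to ACGTG that lie on opposite strands of a single stretch, while the Igfbp3 and Igfbp5 windows held none of the 4 motifs. Of 32851 promoters searched over 250 bases, 12.4% held TATAAA, 32.7% GGGCGG, 6.75% TGANTCA and 16.6% ACGTG. RefSeq gives Igfbp2 a second start, whose window (chr1:72825137-72825386, plus strand, 65 of its bases exonic) held no GC box and 1 AP-1 site. The start shown lies 5' of the annotated gene start given above. These matches describe the letters alone.

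Filters and the removal of doublets left 4317 wild type and 7066 Kif3aΔTub cells, and the median cell held 7771 UMIs in the first and 7799 in the second. Mitochondrial UMIs made up a median of 26.8% in wild type and 7.54% in Kif3aΔTub, and 17 kept barcodes occurred in both libraries. Kif3a stood at 10.3 CPM (UMIs of the gene per 1e6 UMIs of the pool) in wild type and 12.2 in Kif3aΔTub over all kept cells. Its 3' tags may lie outside the deleted part, so these values do not check the label. The 30 clusters gave 19 named classes and 2 unnamed clusters: cluster 14, with markers of principal and intercalated cells together and a median of 26502 UMIs, and cluster 26, led by Cfd, Fabp4, Car3, Adipoq and Col3a1 and holding 64 Kif3aΔTub cells and no wild type cell. Proximal tubule made up 68.4% of wild type and 14.3% of Kif3aΔTub cells, principal cells 3.64% and 21.5%, and macrophages 0.0927% and 9.48%. Such differences in makeup enter the totals of a library, so the members were compared within classes.

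**Figure D1:**
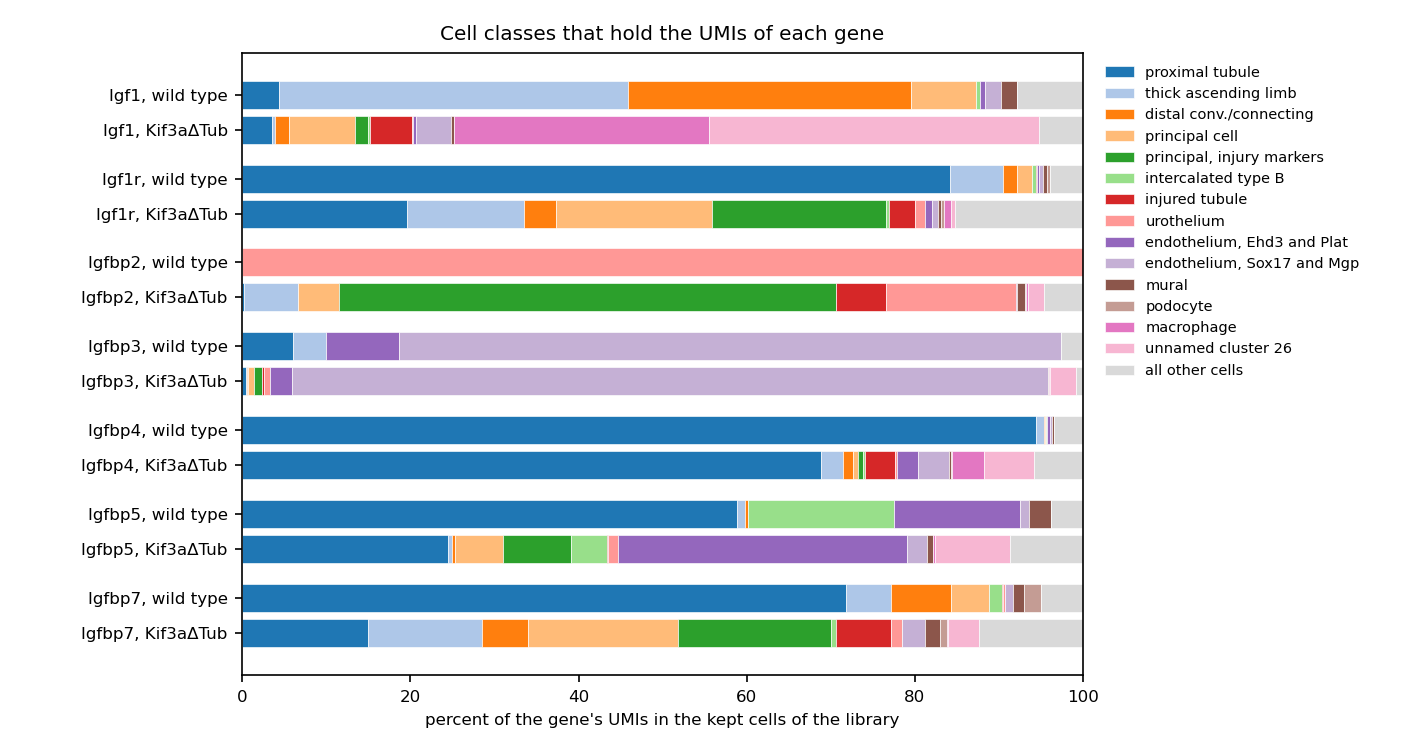
Share of each gene's UMIs (x axis, percent of the gene's UMIs in the kept cells of a library) held by each cell class, with 1 bar per gene and library. Igfbp2 in wild type lies wholly in urothelium, Igfbp3 lies mostly in endothelium with Sox17 and Mgp in both libraries, and Igf1 lies mostly in distal tubule classes in wild type and in cluster 26 and macrophages in Kif3aΔTub.

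Over all kept cells, Igfbp2 was at 0.565 CPM in wild type (24 UMIs) and 52.5 in Kif3aΔTub, Igfbp3 at 3.53 and 20.6, and Igf1 at 4.83 and 10.3. Igfbp4 was at 437 and 86.7 CPM, Igfbp5 at 261 and 106, and Igf1r at 192 and 128. Igfbp7, the member with the most UMIs, was level at 1389 and 1396. The library totals thus ran in both directions, and for Igf1r, Igfbp4 and Igfbp7 proximal tubule alone held 84.2%, 94.5% and 71.8% of the wild type UMIs, against 19.6%, 68.8% and 15.0% of those in Kif3aΔTub.

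Classes with at least 30 cells in each library were compared, which left 10. A member counted as measured in a class with at least 20 UMIs over both libraries, and as higher or lower where its ratio of CPM was at least 2-fold relative to the median gene of that class. Of 70 pairs of a member and a class, 51 were measured: 8 were higher in Kif3aΔTub, 14 lower and 29 within 2-fold. Of the 8, 4 are Igfbp2, which reached 20 UMIs through Kif3aΔTub alone and so had to be higher. Igf1 in proximal tubule (9 and 29 UMIs) and in endothelium with Sox17 and Mgp (4 and 34) also reached 20 through Kif3aΔTub. So did Igfbp5 in principal cells (3 and 472). Among the lower pairs, Igf1 in thick ascending limb (85 and 3) and distal convoluted and connecting tubule (69 and 13) reached 20 through wild type. Igfbp4 in type A (30 and 9) and type B (29 and 10) intercalated cells did too. The counts of higher and lower over all genes give the background. In thick ascending limb 1 of 6 measured members was higher and 3 lower, beside 13.4% and 9.81% of all genes tested. In distal convoluted and connecting tubule 0 of 5 were higher and 3 lower (10.2% and 7.99% of all genes), and in principal cells 2 of 6 and 2 of 6 (9.48% and 6.14%). Proximal tubule had 1 of 5 higher and 0 lower (9.84% and 6.17%), type A intercalated cells 0 and 1 of 4 (6.65% and 5.07%), and type B intercalated cells 0 and 2 of 4 (4.68% and 6.07%). Endothelium with Sox17 and Mgp had 2 of 6 higher and 0 lower (6.62% and 4.86%), and endothelium with Ehd3 and Plat 0 and 0 of 5 (4.6% and 3.58%). Mural cells had 1 and 1 of 5 (6.47% and 8.73%) and cycling cells 1 and 2 of 5 (17.5% and 12.9%). The log2 ratio of the median gene itself was 0.46 in thick ascending limb and in distal convoluted and connecting tubule, 0.36 in cycling cells, 0.20 to 0.25 in proximal tubule, both intercalated classes and mural cells, and 0.01 to 0.04 in principal cells and both endothelia.

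**Figure D2:**
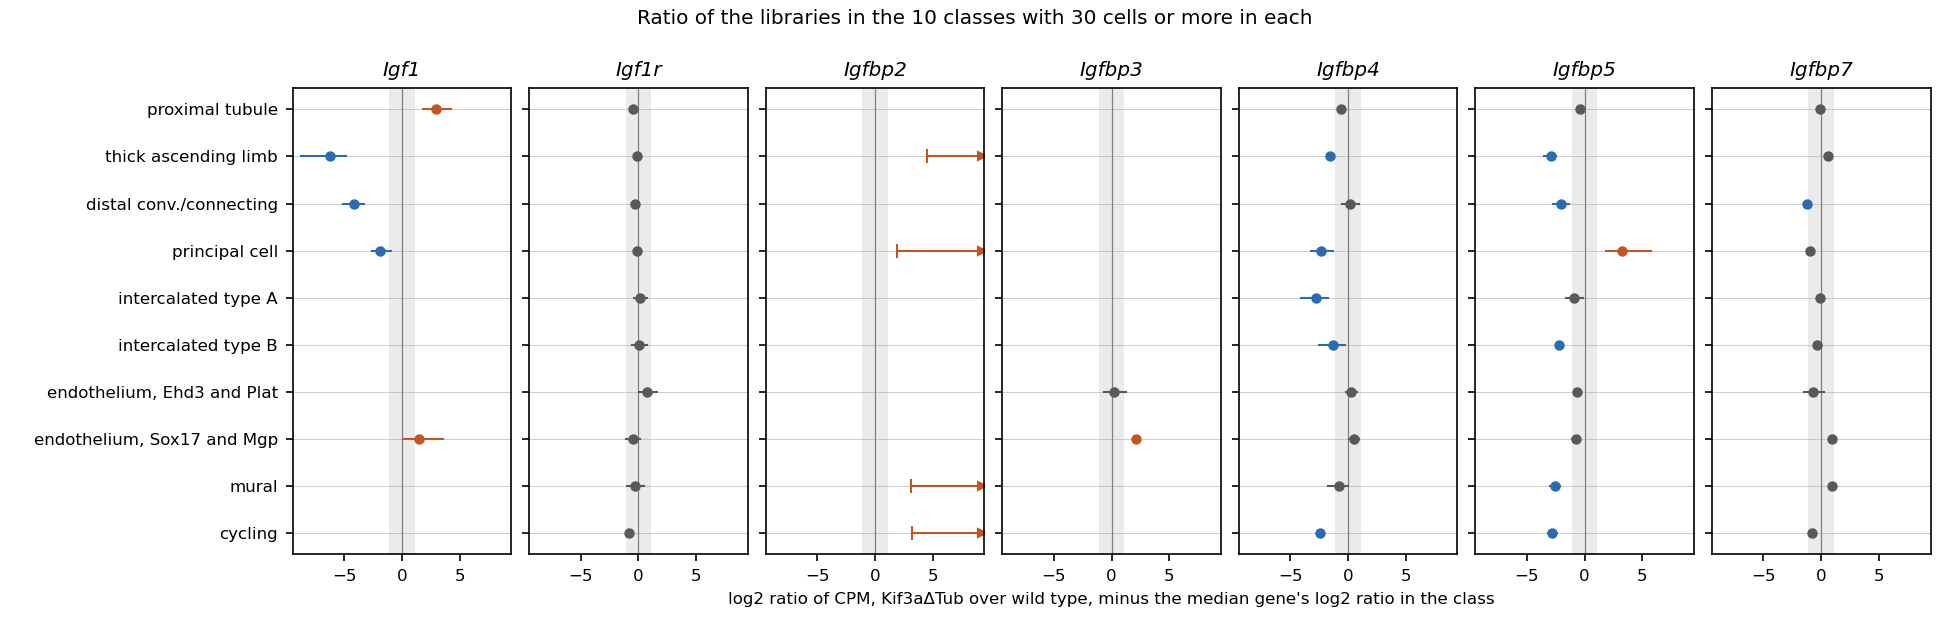
Log2 ratio of CPM, Kif3aΔTub over wild type, minus that of the median gene of the class (x axis), for each measured member in the 10 compared classes (y axis), with 95% counting intervals as lines. Grey bands span 2-fold either way, and orange and blue mark higher and lower. For Igfbp2, with no wild type UMI in these classes, a tick marks the lower bound of the interval and an arrow its open end. All 10 Igf1r points lie in the band, and 5 of 10 Igfbp5 points lie left of it.

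The classes did not always rest on the same clusters. Wild type thick ascending limb was 326 cells of cluster 12 and 12 of cluster 8, while that of Kif3aΔTub was 23 and 549. Distal convoluted and connecting tubule was 171 cells of cluster 21 and 46 of cluster 11 in wild type, and 1 and 348 in Kif3aΔTub. Principal cells lay mainly in cluster 16 in wild type (129 of 157), and in clusters 3 (787) and 6 (553) beside 16 (177) in Kif3aΔTub. Proximal tubule lay in clusters 0, 4, 7, 9 and 13 in wild type and mainly in cluster 2 in Kif3aΔTub (870 of 1010). The intercalated, endothelial, mural and cycling classes were each a single cluster. As a gauge of free RNA, the summed CPM of 12 proximal tubule markers in each other class was expressed as a percent of its level in proximal tubule of the same library, since distal and vascular cells should lack them. In wild type this was 1.35% in thick ascending limb, 1.58% in distal convoluted and connecting tubule, 2.29% in principal cells, 2.07% and 1.88% in type A and type B intercalated cells and 9.60% in mural cells. In Kif3aΔTub it was 0.973%, 0.921%, 0.334%, 0.639%, 1.91% and 2.17% in the same order.

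Igf1, the ligand gene, was lower in Kif3aΔTub in 3 classes of the distal nephron, while in each cluster of those classes with at least 10 cells of both libraries its intervals overlapped. In thick ascending limb it stood at 26.7 CPM (21.3 to 33.0; 85 UMIs in 57 of 338 cells) in wild type and at 0.414 CPM (0.0854 to 1.21; 3 UMIs in 3 of 572 cells) in Kif3aΔTub. The log2 ratio was -5.79 (-8.31 to -4.41). In wild type the level was second to distal convoluted and connecting tubule, with overlapping intervals between these neighbours, and its interval also met those of mural cells, cluster 14, principal cells and endothelium with Sox17 and Mgp. Within cluster 12 alone, wild type had 27.6 CPM from 326 cells and Kif3aΔTub 4.27 CPM, 1 UMI in 23 cells. The 12 wild type cells of cluster 8 held no Igf1 UMI, which allows up to 27.6 CPM, and the 549 Kif3aΔTub cells of that cluster were at 0.285 CPM. Egf, a growth factor gene of this segment and one of its markers, was at 5824 CPM in the wild type and 1756 in the Kif3aΔTub cells of cluster 12, and at 2243 and 86.6 in those of cluster 8. Median mitochondrial shares in the class were 34.2% and 7.25%, and the part of either in the Igf1 values was not tested.

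In distal convoluted and connecting tubule, Igf1 was at 41.8 CPM (32.5 to 52.9; 69 UMIs in 48 of 217 cells) in wild type and 3.20 CPM (1.70 to 5.47; 13 UMIs in 11 of 349 cells) in Kif3aΔTub. This difference followed the clusters: cluster 21, with 171 wild type cells and 1 of Kif3aΔTub, held 68 of the 69 wild type UMIs, at 49.7 CPM. In cluster 11, which both libraries share, Igf1 was at 3.56 CPM in wild type (1 UMI in 46 cells) and 3.20 CPM in Kif3aΔTub (13 UMIs in 348 cells), with overlapping intervals. Cluster 21 held Pvalb, a marker of the early distal convoluted tubule, at 1415 CPM, and cluster 11 held it at 35.6 CPM in wild type and 0 in Kif3aΔTub. Cluster 21 has 1 Kif3aΔTub cell, so within it the libraries could not be compared. The log2 ratio of the class was -3.67 (-4.69 to -2.84). At a clustering resolution of 0.5 it was -1.82, but the class then held different cells. It kept 171 of its wild type cells and 1 of its Kif3aΔTub cells, while 461 Kif3aΔTub cells in it had been principal cells. That value thus sets wild type distal tubule mainly beside Kif3aΔTub principal cells.

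In principal cells, which reabsorb water and sodium in the collecting duct, Igf1 was at 14.7 CPM (8.37 to 23.8; 16 UMIs) in wild type and 4.14 CPM (3.19 to 5.29; 64 UMIs) in Kif3aΔTub. The log2 ratio was -1.86 (-2.63 to -0.93). In cluster 16, which both libraries share, the levels were 15.1 and 15.6 CPM (15 and 34 UMIs), with overlapping intervals. In Kif3aΔTub cluster 3 was at 1.60 CPM from 787 cells and cluster 6 at 13.5 CPM, and those clusters held 10 and 18 wild type cells. The cells of cluster 6 had a median of 981 UMIs. Its leading genes included Col3a1 and Cfd, which also lead cluster 26, and their part in its Igf1 level was not tested. Principal cells with injury markers (cluster 1, led by Lcn2, a tubular injury gene) were at 0.852 CPM in 924 Kif3aΔTub cells.

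**Figure D3:**
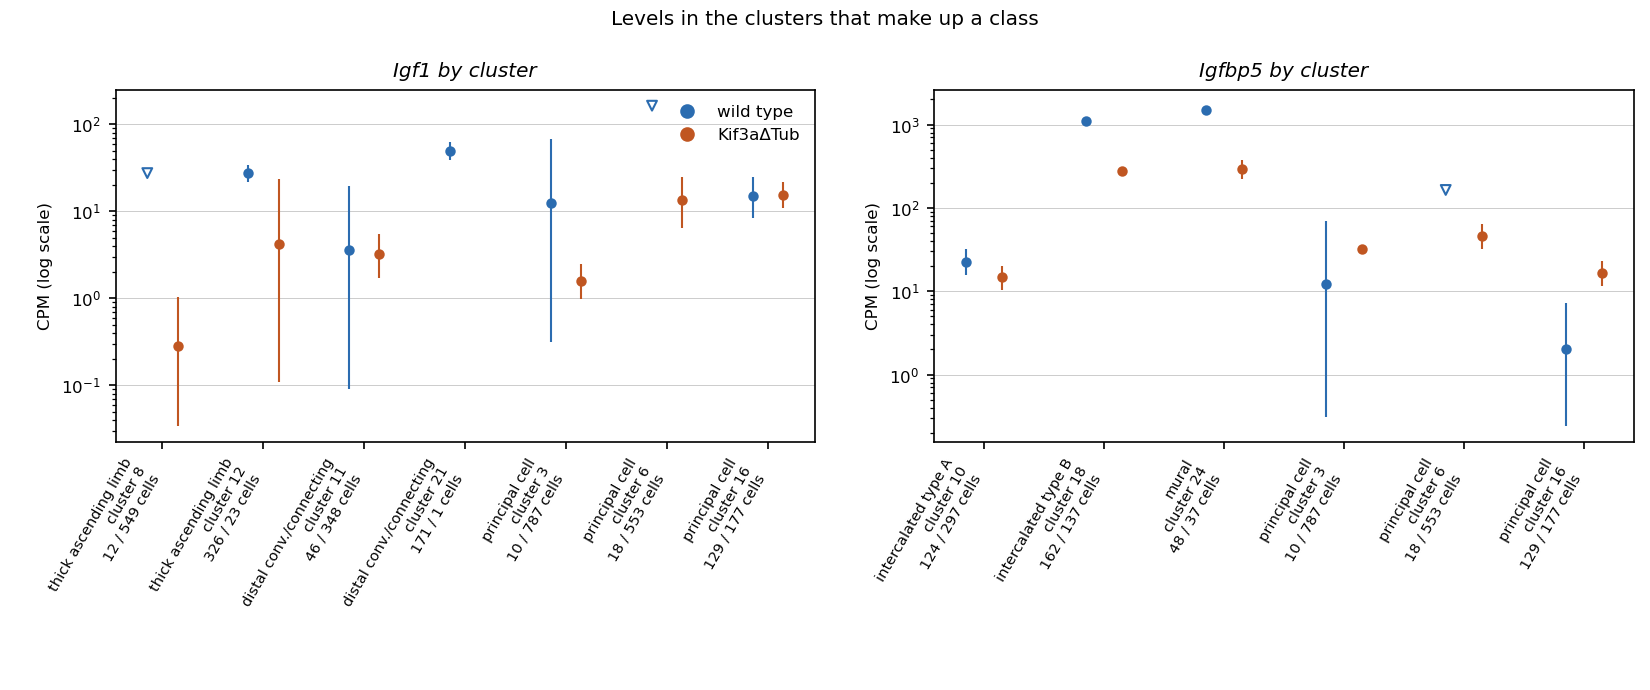
Igf1 (left) and Igfbp5 (right) in CPM on a log axis, for each cluster of the classes named on the x axis with its numbers of wild type and Kif3aΔTub cells; points are levels with 95% Poisson intervals, and open triangles are the limit that 0 UMIs allow. Pools under 10 cells are not drawn. Igf1 is alike in both libraries in clusters 11 and 16, and Igfbp5 in cluster 18 stands at 1094 CPM in wild type and 278 in Kif3aΔTub.

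Outside the distal nephron Igf1 stood higher in Kif3aΔTub in 2 of the compared classes, on few UMIs. In endothelium with Sox17 and Mgp it was at 10.6 CPM (4 UMIs in 3 of 62 cells) and 33.0 CPM (34 UMIs in 18 of 242 cells), a log2 ratio of 1.48 (0.14 to 3.59). In proximal tubule it was at 0.296 CPM (9 UMIs in 8 of 2951 cells) and 2.74 CPM (29 UMIs in 17 of 1010 cells), a log2 ratio of 3.16 (2.10 to 4.48). All 29 of these UMIs lay in cluster 2, which held 11 wild type cells. Both shares of proximal tubule cells, 0.271% and 1.68%, lie at or below those of type A intercalated cells, 1.61% and 1.68% from 5 UMIs each, at medians of 8017 and 7967.5 UMIs per proximal tubule cell and 11467.5 and 8391 per type A cell. The highest proximal tubule cell held 2 Igf1 UMIs in wild type and 7 in Kif3aΔTub, and the highest type A cell 4 and 1. The part of free RNA in these values was not tested.

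The cells with the highest Igf1 levels in the Kif3aΔTub library had next to no wild type counterpart. Cluster 26 was at 290 CPM (259 to 323; 319 UMIs in 42 of 64 cells) and held 39.2% of the library's Igf1 UMIs. Macrophages were at 74.0 CPM (65.1 to 83.8; 247 UMIs in 134 of 670 cells) and held 30.3%, beside 4 wild type macrophages. The injured tubule class, led by Tagln, Vim, Cp, Akap12 and Vcam1, was at 34.5 CPM (24.6 to 47.0; 40 UMIs in 14 of 99 cells), with 2 wild type cells. Of its leading genes only Akap12 and Vcam1 are injured tubule markers, and Akap12 is on the parietal epithelium list too. Monocytes were at 15.7 CPM from 20 UMIs, and neutrophils and podocytes held no Igf1 UMI, which allows up to 31.1 and 23.6 CPM. The order in Kif3aΔTub was thus cluster 26, then macrophages, each apart from the next, then injured tubule and endothelium with Sox17 and Mgp, whose intervals overlapped. Within a class the UMIs were unevenly spread: 37.6% of the UMIs of cluster 26 lay in its 7 highest cells, and 72.9% of those of macrophages in the 67 highest.

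**Figure D4:**
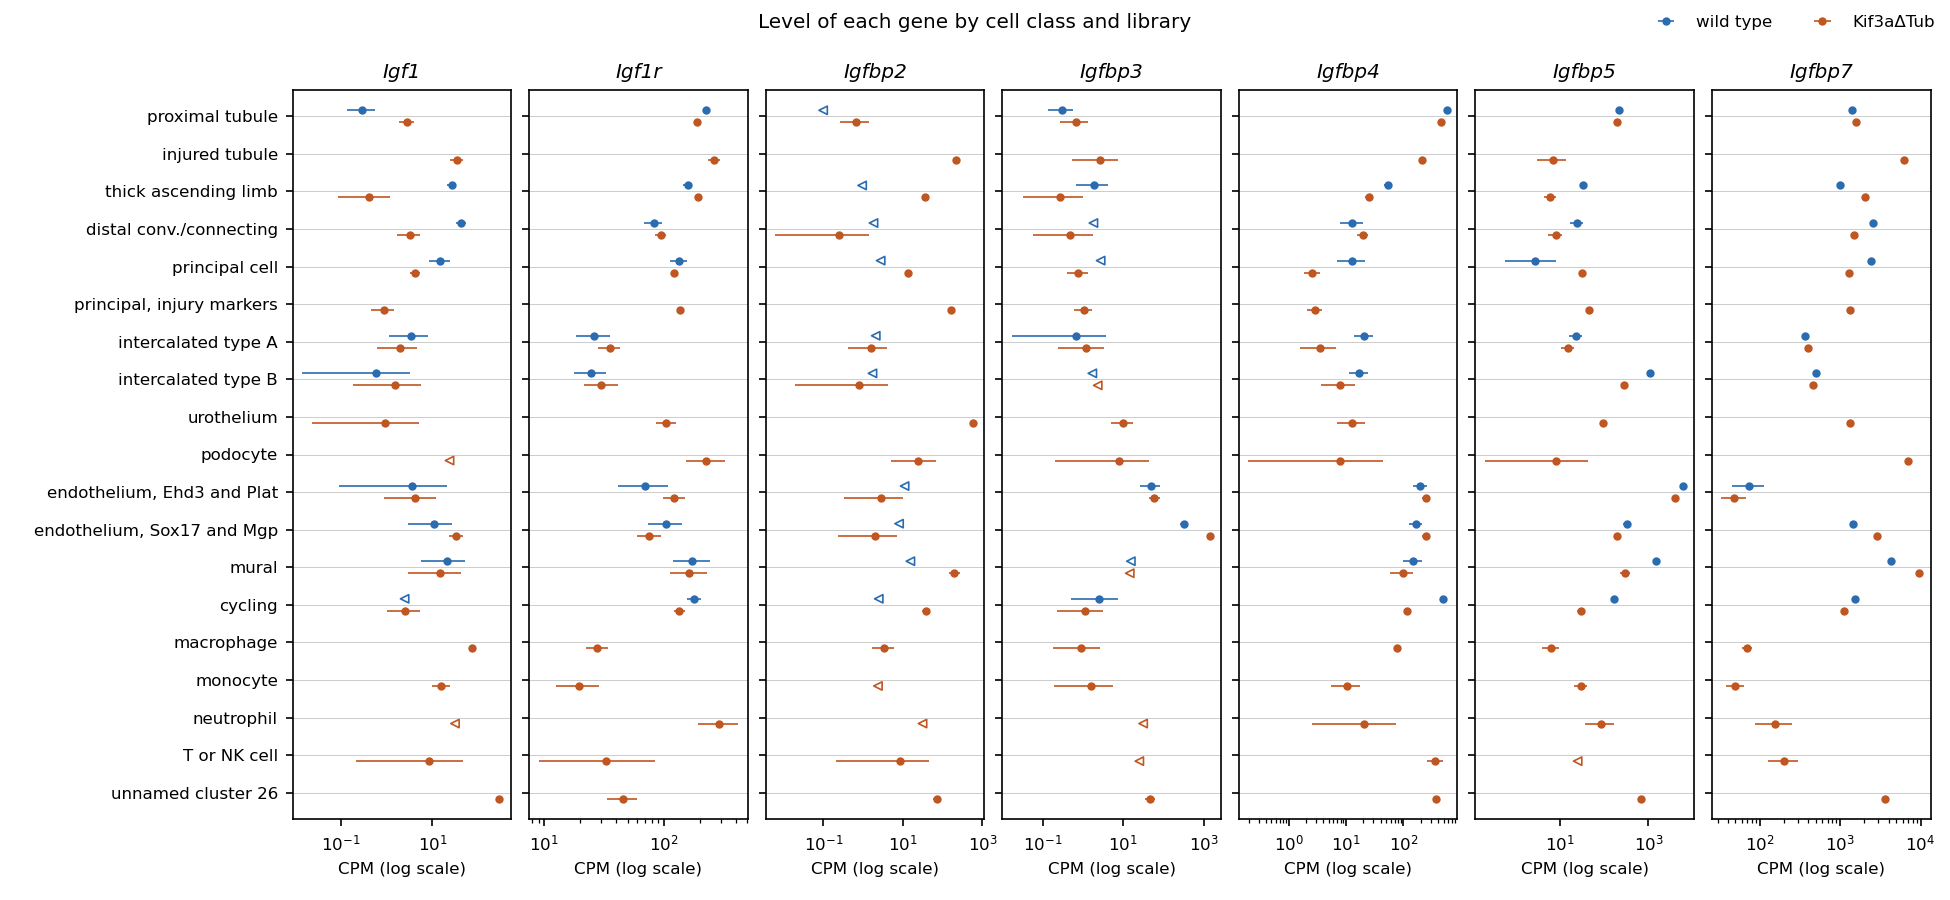
Level of each member in CPM (x axis, log scale) by cell class (y axis) and library, with 95% Poisson intervals as lines; open triangles mark the limit that 0 UMIs allow. Pools under 20 cells are not drawn. Igf1r spans about the same range in both libraries, Igfbp3 peaks in endothelium with Sox17 and Mgp at 314 and 1420 CPM, and Igfbp5 peaks in endothelium with Ehd3 and Plat at 6092 and 3978 CPM.

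Igf1r, the receptor gene, was within 2-fold of equality in all 10 compared classes, relative to the median gene. In proximal tubule it was at 225 CPM (220 to 231) in wild type and 188 CPM (180 to 197) in Kif3aΔTub. In thick ascending limb it was at 159 CPM (146 to 174) and 195 CPM (185 to 205). In principal cells it was at 135 CPM (114 to 158) and 122 CPM (117 to 128). The lowest tubule levels were those of the intercalated cells, at 26.2 and 35.3 CPM in type A and 24.5 and 30.2 CPM in type B, below every other compared class in both libraries. Endothelium with Ehd3 and Plat had the largest ratio on the CPM scale, 69.6 CPM from 19 UMIs in wild type and 123 CPM from 89 UMIs in Kif3aΔTub, with a log2 ratio of 0.79 (0.09 to 1.61). Endothelium with Sox17 and Mgp was at 104 and 75.7 CPM, distal convoluted and connecting tubule at 82.4 and 94.2, mural cells at 174 and 164, and cycling cells at 181 and 135. Other groupings of the cells moved some of these. With the libraries clustered separately, when 128 Kif3aΔTub cells of cluster 14 joined the type B class, its log2 ratio was 1.80 and counted as higher, and that of cycling cells was -0.60 and counted as lower.

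Among the classes with too few wild type cells to compare, the injured tubule class was at 266 CPM of Igf1r (237 to 297; 80.8% of 99 cells) and principal cells with injury markers at 138 CPM (132 to 144; 73.9% of 924 cells). Neutrophils gave 290 CPM, from 28 UMIs and a wide interval of 193 to 419. Their median was 1004.5 UMIs per cell and their proximal tubule marker gauge 7.37%, and the part of free RNA in that level was not tested. Podocytes, the filtering cells of the glomerulus, were at 248 CPM in 17 wild type and 228 CPM in 30 Kif3aΔTub cells. Macrophages and monocytes were low, at 27.9 and 19.6 CPM. The fall of Igf1r over all kept cells, from 192 to 128 CPM, went with the fall of proximal tubule cells from 68.4% to 14.3%.

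Igfbp2, which binds IGF2 and IGF1 and is a secreted protein, was the member with the fewest wild type UMIs. All 24 lay in the 5 urothelium cells, at 667 CPM (427 to 992), and the wild type cells of every other class held none. In the 2951 proximal tubule cells 0 UMIs allow up to 0.0986 CPM, and up to 0.102% of cells with a UMI. In Kif3aΔTub the urothelium was at 584 CPM (540 to 631; 55 of 83 cells), the highest class and close to wild type within the intervals. The next were injured tubule at 211 CPM (186 to 239; 45 of 99 cells), mural cells at 198 CPM and principal cells with injury markers at 161 CPM (155 to 167; 348 of 924 cells). Principal cells with injury markers held 59.1% of the library's Igfbp2 UMIs, urothelium 15.5%, thick ascending limb 6.44% and injured tubule 5.91%. Principal cells with injury markers had 1 cell and injured tubule 2 cells in wild type, so for these the libraries could not be compared.

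In the 4 compared classes where Igfbp2 was measured, wild type was at 0, and each passed the 20 UMIs through Kif3aΔTub alone, so all 4 had to stand higher. Thick ascending limb was at 36.9 CPM (32.6 to 41.6; 267 UMIs in 38 of 572 cells), at least 39.2-fold higher than 3 wild type UMIs would give. Of these UMIs, 1 cell held 52. The class was mainly cluster 12 in wild type (326 cells) and cluster 8 in Kif3aΔTub (549 cells, beside 12 of wild type). The bound thus sets different clusters side by side. Principal cells were at 13.1 CPM (11.3 to 15.0; 202 UMIs in 98 of 1517 cells), at least 4.76-fold higher than 3 wild type UMIs would give. Cycling cells were at 37.4 CPM (102 UMIs in 24 of 125 cells), at least 15.2-fold higher than 3 wild type UMIs would give. Within the principal class of Kif3aΔTub, Igfbp2 ran from 2.30 CPM in cluster 16 (5 UMIs) through 10.5 in cluster 3 to 87.7 in cluster 6, whose cells had a median of 981 UMIs. Cluster 16 held 129 of the 157 wild type cells of the class. Col3a1 and Cfd were among the leading genes of cluster 6, as given for Igf1. Mural cells were at 198 CPM (142 to 268), at least 12.8-fold higher than 3 wild type UMIs would give. Their 41 UMIs, however, lay in 3 of 37 cells and 35 of them in a single cell. The counting intervals of these log2 ratios have no upper end and start at 4.98 in thick ascending limb, 1.94 in principal, 3.60 in cycling and 3.32 in mural cells.

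Not all epithelium of the Kif3aΔTub library held Igfbp2. Proximal tubule was at 0.662 CPM (7 UMIs in 1010 cells), distal convoluted and connecting tubule at 0.246 (1 UMI in 349 cells), and type A and type B intercalated cells at 1.55 and 0.774. Macrophages, at 3.30 CPM and 1.49% of cells, and monocytes, at 0 UMIs in 231 cells, serve as classes that should lack the gene, at medians of 4251 and 5351 UMIs per cell. After thinning every cell to 1000 UMIs, the share of cells with an Igfbp2 UMI was 11.3% in principal cells with injury markers, 18.6% in injured tubule, 2.11% in thick ascending limb and 1.30% in principal cells, against 0.677% in macrophages. Within a class the UMIs were concentrated: the 93 highest principal cells with injury markers held 71.4% of them, and 1 cell held 65. In the same 924 cells Igfbp2 and Igfbp5 were found together in 117, Igfbp2 alone in 231 and Igfbp5 alone in 153.

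Igfbp3, the main carrier of IGF1 in blood, was a gene of endothelium with Sox17 and Mgp, a class whose Sox17 is a marker of arteries. This class held 78.7% of the wild type and 90.0% of the Kif3aΔTub UMIs of Igfbp3. It stood at 314 CPM (260 to 376; 118 UMIs in 21 of 62 cells) in wild type and 1420 CPM (1349 to 1495; 1464 UMIs in 128 of 242 cells) in Kif3aΔTub. The level was higher in Kif3aΔTub by a log2 ratio of 2.17 (1.91 to 2.46), and the intervals lie far apart. The share of cells with a UMI was 33.9% (22.3 to 47.0) and 52.9% (46.4 to 59.3), or 16.4% and 39.4% after thinning to 1000 UMIs. Single cells weighed on both sums: the highest cell held 25 UMIs in wild type and 163 in Kif3aΔTub, and the 7 highest of 62 cells held 76.3% and the 25 highest of 242 held 74.1%. With each cell given equal weight the log2 ratio was 1.53, still more than 2-fold higher.

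Igfbp3 was low in the other endothelium. In endothelium with Ehd3 and Plat, genes known from glomerular capillaries, Igfbp3 was at 47.6 CPM (25.4 to 81.4) in wild type, all 13 UMIs in 1 of 93 cells, and at 59.2 CPM (42.9 to 79.8) in Kif3aΔTub, 43 UMIs in 12 of 232 cells. The log2 ratio in endothelium with Ehd3 and Plat, 0.28, depended on grouping. It was -1.76 with the libraries clustered separately and 4.81 with IGF genes kept for clustering. Outside endothelium the highest Kif3aΔTub levels were 45.4 CPM in cluster 26 and 10.01 CPM in urothelium. Mural cells held none in either library, and proximal tubule was at 0.296 and 0.662 CPM. Sox17, which named the class with Mgp, was at 1916 CPM in wild type and 976 in Kif3aΔTub in it, and the Kif3aΔTub cells of the class also held 152 CPM of Lcn2, a gene of injured tubule, where the wild type cells held none. The part of either gene's difference in that of Igfbp3 was not tested.

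Igfbp4, which withholds IGF until the protease PAPP-A cuts it, was a proximal tubule gene in both libraries. Proximal tubule was at 577 CPM (568 to 585; 82.0% of 2951 cells) in wild type and 446 CPM (434 to 459; 79.5% of 1010 cells) in Kif3aΔTub, a log2 ratio of -0.37 (-0.42 to -0.32) and within 2-fold. The T or NK cell class was at 363 CPM in 14 wild type cells and 358 CPM (259 to 482) in 38 Kif3aΔTub cells. Endothelium with Ehd3 and Plat was at 194 and 242 CPM, endothelium with Sox17 and Mgp at 165 and 243, and mural cells at 149 and 96.3, all within 2-fold. Cluster 26 was at 369 CPM and injured tubule at 214 CPM in Kif3aΔTub.

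Of the 5 classes in which Igfbp4 was lower in Kif3aΔTub, 3 stood near the level of the free RNA gauge. In principal cells it was at 12.8 CPM (14 UMIs) and 2.59 CPM (40 UMIs), which is 2.22% and 0.58% of its proximal tubule level, beside a marker gauge of 2.29% and 0.334%. In type A intercalated cells it was at 20.7 and 3.49 CPM, 3.58% and 0.782% of proximal tubule beside 2.07% and 0.639%. In type B intercalated cells it was at 16.5 and 7.74 CPM, 2.87% and 1.73% beside 1.88% and 1.91%. The gauge was lower in Kif3aΔTub, as Igfbp4 was, in principal and type A cells and not in type B cells, and its part in these differences was not tested. Thick ascending limb stood clear of it, at 53.6 CPM (45.9 to 62.3) and 25.3 CPM (21.7 to 29.2), or 9.3% and 5.66% of proximal tubule beside 1.35% and 0.973%. The clusters of the class ran opposite ways. In cluster 12 Igfbp4 was at 53.3 CPM (45.4 to 62.1) in wild type and higher in Kif3aΔTub, at 124 CPM (83.0 to 178; 29 UMIs in 23 cells). In cluster 8, which held most Kif3aΔTub cells of the class, Igfbp4 was lower in Kif3aΔTub, as in the class. There it was at 64.4 CPM (7 UMIs in 12 cells) in wild type and between 18.6 and 25.7 CPM (154 UMIs in 549 cells) in Kif3aΔTub. Cycling cells were at 483 and 114 CPM, beside a gauge of 49.5% in wild type and 16.1% in Kif3aΔTub, and the part of proximal tubule cells among them was not tested.

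**Figure D5:**
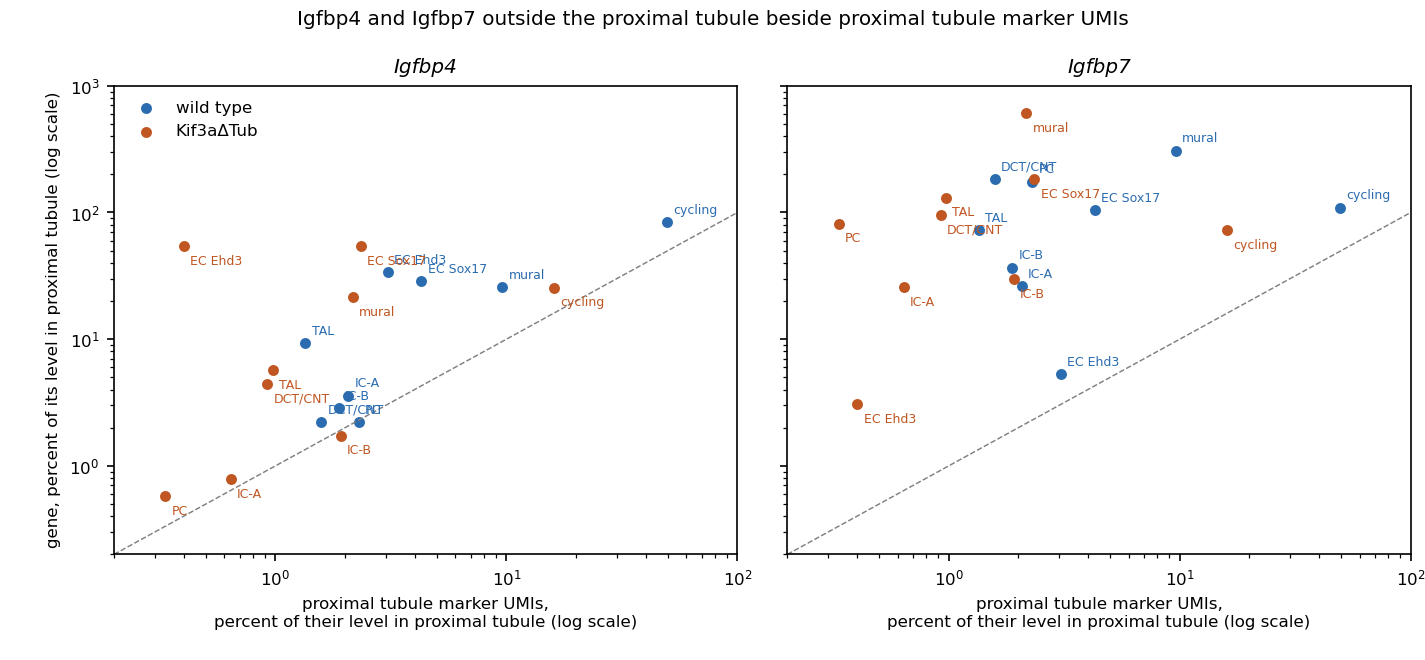
Igfbp4 (left) and Igfbp7 (right) in classes other than proximal tubule, as percent of the gene's level in proximal tubule of the same library (y axis), against proximal tubule marker UMIs as percent of theirs (x axis), both on log axes, with a dashed line of equality. For Igfbp4, principal and intercalated cells lie near the line, while thick ascending limb and endothelia lie above it. Igfbp7 lies above the line in all classes shown.

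Igfbp5, a binding protein known for its affinity for matrix, had its highest level in endothelium with Ehd3 and Plat, at 6092 CPM (5802 to 6392; 87 of 93 cells) in wild type and 3978 CPM (3834 to 4126; 197 of 232 cells) in Kif3aΔTub. The log2 ratio was -0.61 (-0.70 to -0.53), within 2-fold, and 0.53 with the libraries clustered separately. In the other endothelium it was at 325 CPM (122 UMIs in 11 of 62 cells) and 196 CPM (202 UMIs in 37 of 242 cells). The endothelia were thus set apart by Igfbp5 and Igfbp3: of 93 wild type cells with Ehd3 and Plat, 86 held Igfbp5 alone, 1 held both genes and 0 held Igfbp3 alone. Of 232 Kif3aΔTub cells with Ehd3 and Plat, 193 held Igfbp5 alone, 4 both genes and 8 Igfbp3 alone. Of 62 wild type cells with Sox17 and Mgp, 14 held Igfbp3 alone, 7 both genes, 4 Igfbp5 alone and 37 neither. Of 242 Kif3aΔTub cells with Sox17 and Mgp, 99 held Igfbp3 alone, 29 both genes, 8 Igfbp5 alone and 106 neither.

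In the tubule Igfbp5 was highest in type B intercalated cells, which secrete bicarbonate, and stood lower there in Kif3aΔTub. The level was 1094 CPM (1045 to 1144; 1917 UMIs) in wild type and 278 CPM (250 to 308; 359 UMIs) in Kif3aΔTub, a log2 ratio of -1.98 (-2.14 to -1.81). The share of cells with a UMI was 74.7% (67.3 to 81.2) of 162 cells and 35.8% (27.8 to 44.4) of 137 cells, or 51.4% and 14.2% after thinning. The wild type and Kif3aΔTub cells were a single cluster, and Slc26a4, the chloride-bicarbonate exchanger that defines type B cells, was at 876 and 995 CPM in it. Insrr, another marker of the type B list, was lower in Kif3aΔTub, at 448 and 257 CPM. The part of the class's makeup in the Igfbp5 difference was not tested. Type A intercalated cells, which secrete acid, held Igfbp5 at 22.7 CPM (33 UMIs in 9 of 124 cells) and 14.7 CPM (38 UMIs in 20 of 297 cells). Cluster 14 lay between, at 317 CPM in 21 wild type and 58.9 CPM in 309 Kif3aΔTub cells. Median mitochondrial shares were 25.9% and 9.64% in the type B cells. With the libraries clustered separately, 128 Kif3aΔTub cells of cluster 14 joined the type B class and the log2 ratio was -3.06.

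Principal cells went the other way for Igfbp5. They were at 2.75 CPM (0.566 to 8.03; 3 UMIs in 157 cells) in wild type and 30.6 CPM (27.9 to 33.4; 472 UMIs in 258 of 1517 cells) in Kif3aΔTub, a log2 ratio of 3.25 (1.92 to 5.76). In the shared cluster 16, Kif3aΔTub was at 16.6 CPM from 36 UMIs and wild type at 2.01 CPM from 2 UMIs. With the libraries clustered separately the direction turned, to a log2 ratio of -1.79. The class then held, among others, 14 wild type cells of cluster 14, 150 Kif3aΔTub principal cells with injury markers and 855 of its own Kif3aΔTub cells. The part of each in that value was not tested. Principal cells with injury markers were at 44.8 CPM (41.5 to 48.3; 29.2% of 924 cells).

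Mural cells, the smooth muscle, pericytes and renin cells of vessels, were at 1503 CPM of Igfbp5 (1335 to 1685; 42 of 48 cells) in wild type and 294 CPM (225 to 377; 20 of 37 cells) in Kif3aΔTub, a log2 ratio of -2.34 (-2.78 to -1.95). In the same cells Ren1, the renin gene, was at 4431 and 1344 CPM, Myh11, of smooth muscle, at 3559 and 2958, Tagln at 13344 and 13956, and the collagen gene Col3a1 at 215 and 785. Ren1 was thus lower with Igfbp5 and Col3a1 higher, and the part of the class's makeup was not tested. With at least 1000 UMIs required per cell, 27 Kif3aΔTub cells of cluster 26 joined the class and the log2 ratio of Igfbp5 was 0.0138, so its direction rests on how those cells were grouped. Thick ascending limb was at 33.6 and 5.94 CPM (107 and 43 UMIs), and distal convoluted and connecting tubule at 23.6 and 7.87 CPM (39 and 32 UMIs). The latter ratio turned to 0.52 (log2) at a clustering resolution of 0.5, with the regrouping given for Igf1. Both classes rested mainly on different clusters in each library, as given above, and the part of the clusters in these Igfbp5 ratios was not tested. Cycling cells were at 163 and 30.1 CPM, with the marker gauge given above. Proximal tubule, with 6529 and 2058 UMIs, was at 215 and 195 CPM, but its clusters ran both ways, from 286 and 436 CPM in cluster 0 to 414 and 190 CPM in cluster 2. Cluster 26 was at 681 CPM.

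Igfbp7, a secreted protein of the matrix, was within 2-fold in 9 of the 10 compared classes. Podocytes were at 9054 CPM in 17 wild type and 7082 CPM in 30 Kif3aΔTub cells, and mural cells at 4267 CPM (3982 to 4567) and 9577 CPM (9161 to 10007). The mural log2 ratio of 1.17 (1.05 to 1.28) passed 2-fold on the CPM scale but not relative to the median gene, at 0.96. Endothelium with Sox17 and Mgp was at 1450 and 2864 CPM, a log2 ratio of 0.98 (0.85 to 1.12), and the other endothelium was the lowest compared class in both libraries, at 73.3 and 48.2 CPM. The log2 ratio of the latter, -0.62, became -4.16 and counted as lower with the libraries clustered separately. The endothelia thus stood apart in Igfbp7 as well, and in the Sox17 and Mgp class of Kif3aΔTub 110 of 242 cells held Igfbp3 and Igfbp7 together.

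Along the tubule Igfbp7 stood at 1391 and 1568 CPM in proximal tubule, 363 and 403 CPM in type A and 509 and 465 CPM in type B intercalated cells, each within 2-fold. The proximal tubule ratio depends on which clusters fill the class: in all 4 clusters with at least 10 cells of both libraries Igfbp7 was lower in Kif3aΔTub, at 1539 and 739 CPM in cluster 0, 2114 and 1608 in cluster 2, 1834 and 878 in cluster 4 and 664 and 584 in cluster 13, with overlapping intervals in the last. The class log2 ratio of 0.17 became -0.94, and counted as lower, with doublets kept, and 0.73 with a mitochondrial limit of 25%. In thick ascending limb it was at 1005 CPM (970 to 1040) and 2050 CPM (2017 to 2083), a log2 ratio of 1.03, or 0.57 relative to the median gene. Its clusters ran opposite ways, at 1034 CPM (998 to 1070) and 671 CPM (570 to 784) in cluster 12, and at 184 CPM (112 to 284; 20 UMIs in 12 cells) and 2096 CPM (2062 to 2130) in cluster 8. In distal convoluted and connecting tubule it was at 2550 CPM (2474 to 2629) and 1498 CPM (1460 to 1536), a log2 ratio of -0.77, or -1.23 relative to the median gene, which counted as lower. Over all settings this log2 ratio ran from -1.60 to -0.34. Cluster 21 held 171 of the 217 wild type cells and cluster 11 held 348 of the 349 Kif3aΔTub cells. The part of the clusters was not tested. In principal cells Igfbp7 was at 2439 CPM (2347 to 2533) and 1279 CPM (1261 to 1297), a log2 ratio of -0.93. The injured tubule class of Kif3aΔTub, at 6196 CPM (6054 to 6341), was above every tubule class compared, and cluster 26 was at 3669 CPM. Macrophages and monocytes, at 69.8 and 49.4 CPM, stood at 4.45% and 3.15% of the proximal tubule level.

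The wider IGF pathway was read from a list of 40 further genes, of which 32 were measured in at least 1 class. In the 10 classes 219 gene and class pairs were measured, of which 19 were higher and 28 lower in Kif3aΔTub. By class, 4 of 28 were higher and 0 lower in proximal tubule, 3 and 6 of 27 in thick ascending limb, 1 and 4 of 25 in distal convoluted and connecting tubule, and 3 and 3 of 27 in principal cells. The counts were 0 and 2 of 22 in type A and 0 and 5 of 23 in type B intercalated cells, 1 and 2 of 13 and 1 and 0 of 20 in endothelium with Ehd3 and Plat and with Sox17 and Mgp, 0 and 1 of 9 in mural and 6 and 5 of 25 in cycling cells. These are read against the shares of all genes given for each class above, 13.4% higher and 9.81% lower in thick ascending limb among them. The list's median log2 ratio relative to the median gene ran from -0.54 in cycling cells to -0.01 in proximal tubule. Over all genes tested the same median ran from -0.09 in mural to 0.06 in cycling cells. Thick ascending limb, distal convoluted and connecting tubule, proximal tubule and principal cells rested mainly on different clusters in each library, as given above. The pathway genes were not split by cluster, so the part of the clusters in their ratios was not tested.

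Among the receptors of the list, Ghr, the growth hormone receptor through which Igf1 is induced, was lower in 4 classes. It was at 71.5 and 40.0 CPM in thick ascending limb, 49.7 and 27.1 in distal convoluted and connecting tubule, 57.6 and 30.2 in type B intercalated cells and 94.4 and 37.4 in cycling cells. It was higher in endothelium with Ehd3 and Plat, at 18.3 and 48.2 CPM from 5 and 35 UMIs. Socs2, an inhibitor of growth hormone signalling, was higher in 3: 9.43 and 32.7 CPM in proximal tubule, 24.5 and 69.6 in thick ascending limb, and 4.10 and 29.7 in cycling cells. It was lower in type B intercalated cells, at 9.70 and 3.87 CPM from 17 and 5 UMIs. Both products act in the growth hormone pathway, upstream of Igf1, and a link of these values to those of Igf1 was not tested. Insr, the insulin receptor gene, was at 26.6 and 105 CPM in endothelium with Sox17 and Mgp (log2 ratio 1.91, 1.04 to 3.08) and at 27.6 and 18.2 CPM in thick ascending limb. Insrr, an insulin receptor relative and a naming marker of type B cells, was at 38.6 and 5.04 CPM in type A and 448 and 257 CPM in type B intercalated cells. Igf2r, the clearance receptor of IGF2, was at 74.7 and 40.7 CPM in cycling cells.

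Stc1 and Stc2 encode stanniocalcins, which inhibit the proteases that cut binding proteins. Stc2 was at 1.51 and 8.33 CPM in proximal tubule (46 and 88 UMIs, log2 ratio 2.45, 1.93 to 3.01) and 0.627 and 7.73 CPM in thick ascending limb (2 and 56 UMIs). In principal cells wild type held no Stc2 UMI and Kif3aΔTub was at 6.41 CPM, at least 2.33-fold higher than 3 wild type UMIs would give, with an interval of the log2 ratio that starts at 0.90. Stc1 was at 54.9 and 27.4 CPM in principal cells. Pappa, the protease gene, was at 0.821 CPM (1 UMI) and 27.5 CPM (75 UMIs) in cycling cells, beside the gauge values of that class given above. Relative to the median gene it was within 2-fold in principal cells, at 135 and 111 CPM. The same held in distal convoluted and connecting tubule, at 15.8 and 33.2 CPM. In type B intercalated cells Pappa was lower, at 16.5 and 5.42 CPM from 29 and 7 UMIs.

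Of the signalling genes, Irs1, an insulin receptor substrate, was at 70.9 and 30.6 CPM in type A intercalated cells. In principal cells Pik3r1, a PI3 kinase subunit, was at 90.6 and 43.6 CPM and Grb10, an adaptor that inhibits the receptor, at 1.83 CPM (2 UMIs) and 7.44 CPM. Foxo3, a transcription factor that AKT restrains, was at 50.8 and 29.5 CPM in thick ascending limb, and Foxo1 at 37.0 and 22.6 CPM in distal convoluted and connecting tubule. In cycling cells Akt1 was at 32.0 and 119 CPM and Pik3ca at 78.0 and 38.1 CPM, beside the gauge values of that class given above.

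To see which genes shared a member's pattern, log2(CPM + 1) was correlated over 30 pools of a class and a library with at least 30 cells each, among 12571 genes. The pools share 2 libraries, so r is a description. Igfbp3 had the closest companions, the endothelial genes Jam2 (r = 0.92), Nos3 (0.91) and Palmd (0.91). Igfbp7 was most like Pkia (0.85), A330069E16Rik (0.84) and Tead1 (0.83), and Igfbp2 most like Akr1b8 (0.81), Cdkn2b (0.80) and Ankrd1 (0.79), which peaked in urothelium or injured tubule. Igfbp4 was like Kctd17 (0.75) and Bmp6 (0.73), Igf1r like Slco3a1 (0.75), Lrrk2 (0.73) and Gpc3 (0.71), and Igfbp5 like Sipa1l2 (0.74), Epas1 (0.74) and Csgalnact1 (0.72). Igf1 had the loosest, among them Vps13c (0.68) and Cygb (0.67), both highest in cluster 26. Among the members themselves the closest pair was Igf1r and Igfbp7 at r = 0.54, below the 3 leading genes of each.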

How the data were processed

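Single-cell 3' RNA was measured in 1 wild type and 1 Kif3aΔTub library. The authors deposited filtered matrices of raw UMI counts, which name software version 3.1.0 per the file headers. Per the submitters' processing notes, Cell Ranger 3.0.2, Seurat 3.1.1 and mm10 were used, and which version made these counts was not settled.

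Barcodes under 500 UMIs or 200 genes, or with 50% or more mitochondrial UMIs, were left out, which kept 4371 of 6938 in wild type and 7236 of 7950 in Kif3aΔTub. Scrublet, run per library, removed 54 (1.24%) and 170 (2.35%), and 42468386 and 79060495 UMIs remained. Cells of both libraries were clustered together without integration (scanpy 1.11.5, 2000 variable genes, 1987 once IGF genes were left out, 30 principal components, 15 neighbours, Leiden resolution 1). Clusters were named from 27 marker lists, with at least 3 markers at 50 CPM, 20 UMIs and 2-fold, by a naming rule written after the clusters had been seen. B or plasma cells (17 and 16) were named but are not described.

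UMIs were summed per class and library and divided by the class total (CPM). Levels carry exact Poisson, shares Clopper-Pearson and ratios exact conditional intervals, and PCR and capture error lie outside them. Log2 ratios have 0.5 UMIs added to both sums, and a sum of 0 is bounded at 3 counts. No p-value was computed. Functions were tested on simulated data. TMM factors (edgeR 4.0.16) served as an alternative scaling. Members and lists were chosen with earlier results of these data known. Named pathway genes were those at least 2-fold apart with at least 50 UMIs in the higher library, at most 3 each way per class, and the 3 genes most correlated with each member were named. Some genes that these rules name are not reported here.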

Additional observations from a re-analysis of the deposited data

Results flagged for a closer look

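Igf1 stood apart in opposite directions between classes. The log2 ratio, Kif3aΔTub over wild type, was -5.79 in thick ascending limb, -3.67 in distal convoluted and connecting tubule and -1.86 in principal cells, and 1.48 in endothelium with Sox17 and Mgp and 3.16 in proximal tubule. Igfbp5 was at 3.25 in principal cells, and at -2.49 in thick ascending limb, -2.44 in cycling cells, -2.34 in mural cells, -1.98 in type B intercalated cells and -1.58 in distal convoluted and connecting tubule. In the clusters of distal convoluted and connecting tubule and of principal cells that both libraries share, Igf1 was alike, as given above. Its proximal tubule ratio rests on 9 and 29 UMIs. The ratios of Igf1 in principal cells and of Igfbp5 in principal cells, mural cells and distal convoluted and connecting tubule changed sign under other settings, as given below. Thick ascending limb and distal convoluted and connecting tubule rested mainly on different clusters in each library, as given above. With 1 library per genotype the differences between classes were not tested.

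Barcodes left out for 50% or more mitochondrial UMIs, 2564 in wild type and 706 in Kif3aΔTub, also held members. Igf1 was at 3.34 CPM in the wild type and 1.67 CPM in the Kif3aΔTub ones, above the limit that 0 counts allow in each library. Igfbp2 was at 9.0 CPM and Igfbp3 at 8.33 CPM in those of Kif3aΔTub, and both were at 0 UMIs in those of wild type.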

How the results depend on the processing

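Each library is the only one of its genotype, so none could be left out. No paired analysis was possible because the groups hold 1 sample each. Of 496 ratios recomputed under other settings, 400 stayed within the interval reported, 92 left it and 4, all of pairs that counted as higher or lower, changed sign. Among the 29 pairs within 2-fold the sign changed in 27 of 296 values, in 15 pairs, and 13 values in 9 pairs then counted as higher or lower. The 4 were Igf1 in principal cells, and Igfbp5 in principal cells, mural cells and distal convoluted and connecting tubule. Igf1 in principal cells was at 0.0244 when only clusters with at least 30 cells of each library were used (chosen after seeing the data). Igfbp5 in distal convoluted and connecting tubule was at 0.52 at resolution 0.5. There 461 Kif3aΔTub cells of the class had been principal cells and 1 had been of the class before. Igfbp5 in principal cells was at -1.79 with the libraries clustered separately. There 14 wild type cells came from cluster 14 and 150 Kif3aΔTub cells from principal cells with injury markers. Igfbp5 in mural cells was at 0.0138 with at least 1000 UMIs per cell, where 27 Kif3aΔTub cells came from cluster 26 and 33 had been mural. With each cell weighted equally, Igfbp5 in mural cells was at -1.85 and Igfbp3 in endothelium with Sox17 and Mgp at 1.53. Igfbp5 in type B intercalated cells was at -3.06 with separate clustering, where 128 Kif3aΔTub cells of cluster 14 joined the class, -2.24 without mitochondrial genes and -2.16 with TMM factors. Igf1 in distal convoluted and connecting tubule was at -1.82 at resolution 0.5, with the regrouping just given. The cause was not tested for any of these settings.

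Of the member and class pairs, 8 were higher and 14 lower, 4 of the 8 being Igfbp2, which had to be higher. These became 5 and 8 in clusters with at least 30 cells of each library (41 pairs measured), 5 and 7 with at least 100 UMIs per pair, and 8 lower with a mitochondrial limit of 25% (42 pairs measured). Further pairs that reached the limit of UMIs through a single library are named above. With at least 100 UMIs the pathway list had 7 higher and 14 lower pairs in place of 19 and 28. The shares over all genes were taken at the main setting only, so the counts under other settings have no background beside them. Depth limits Igf1, Igfbp2 and Igfbp3 most, with 205, 24 and 150 wild type UMIs in all.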
